A study of Mus musculus with 19 samples.

Results

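Autosomal gene expression was compared between testis-bearing mice with XX (XXM, n = 5) and XY (XYM, n = 5) sex chromosomes, using splenocytes taken 1 week after immunization with heat-killed Streptococcus pneumoniae (HKSP). Of the 27179 genes listed, 23975 were placed on an autosome, and the 12764 of these reaching an RPKM (reads per kilobase of gene length, scaled to library size) of 0.5 in at least 4 of the 10 mice are described. The 10 mice belong to a series of 19 from the FCG model, in which Sry, the testis-determining gene, is missing from the Y chromosome and sits as a transgene on an autosome. XXM and XYM mice thus both carried the transgene and testes, and differed in having a second X or a Y chromosome that lacks Sry. Both had fathers with the transgene Tg(Sry)2Ei and the deletion Sry dl1Rlb, on a B6 background, and C57BL/6J mothers, and both received the avirulent, unencapsulated strain R36A by the intraperitoneal route. No mouse without immunization belongs to the series, and the age of the mice is not stated. XX mice with the transgene have testes but make no sperm, and red cells were lysed before RNA was prepared.

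A spleen 1 week after such an immunization holds B cells that have become plasma cells or entered germinal centers, where activated B cells mutate and switch their antibody genes with the help of T cells. It also holds natural killer (NK) cells, whose surface receptors of the killer lectin-like family (Klr and Klra genes) recognize MHC class I and related molecules, and myeloid and erythroid cells. Because whole splenocytes were measured, fewer cells of a type and less RNA per cell cannot be told apart in any difference given here.

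The XXM libraries held 12119957 to 18099717 reads, with a median of 16156083, and the XYM libraries 15887402 to 19962022, with a median of 19061692. Expression is given as log2(RPKM + 1), and a difference is always the XXM mean minus the XYM mean on that scale, which understates the change of weakly expressed genes. The labels were checked against sex-linked genes. Xist, the RNA of the inactive X chromosome, had between 5823 and 12998 reads in XXM mice and between 2 and 17 in XYM mice, the Y-linked gene Ddx3y had between 0 and 3 reads in XXM mice and between 3968 and 5406 in XYM mice, and Sry was read in all 10 mice. Only XXM titles, all 5 of them, have an extra tag of unknown meaning, and no batch is stated, so that handling and genotype cannot be told apart.

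The library of XYM 9 stood apart from those of the other XYM mice. Its summed RPKM over 20 neutrophil genes was 64394, against 3570 to 10417 in XYM 12, 13, 15 and 16 and 4926 to 8273 in XXM mice. The most abundant of them was S100a9, with a level of 14.59 in XYM 9 and of 10.34 to 11.89 in the other XYM mice. Over 24 NK and cytotoxic genes XYM 9 had a summed RPKM of 422, against 691 to 1062 in the other XYM mice. Results are therefore also given without this mouse, an alternative whose use beside the gene lists was chosen after seeing the data.

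With limma over all 13656 genes tested and Benjamini-Hochberg adjustment, a gene was called at an adjusted p under 0.1 and a difference over 0.585 (1.5-fold) in size. Of the 12764 autosomal genes, 132 were called higher in XXM mice (1.03%) and 238 lower (1.86%), and the median difference over all 12764 was 0.01. All 5 XXM values lay above all 5 XYM values for 294 genes (2.3%) and below them for 224 (1.75%). Of the called genes, 55 of the higher and 76 of the lower had no such overlap. Some killer lectin-like receptors and the granule protease Gzma were among the higher genes. Some antibody heavy chain segments, germinal center genes, T cell genes and interferon-inducible genes were among the lower ones. The number called rested on single mice. It was 21 higher and 27 lower without XXM 2, 29 and 45 without XXM 5, 33 and 48 without XXM 6, 206 and 348 without XXM 7, and 269 and 303 without XXM 8. It was 28 and 48 without XYM 12, 24 and 26 without XYM 13, 481 and 606 without XYM 15, 27 and 41 without XYM 16, and 192 and 494 without XYM 9. Without XXF F5, an ovary-bearing mouse that enters through the shared spread, 93 were higher and 141 lower. With each of the 10 males left out in turn, 17 genes were called higher and 22 lower every time.

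**Figure D1:**
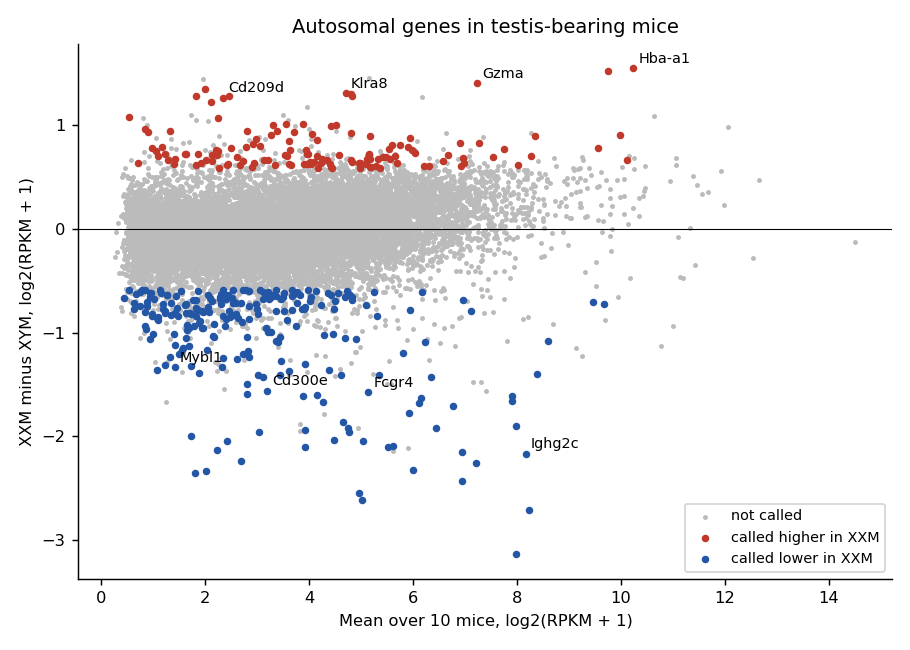
Difference between XXM and XYM mice (vertical axis, log2(RPKM + 1)) against the mean level over the 10 mice (horizontal axis, log2(RPKM + 1)) for 12764 autosomal genes, 1 point a gene. Red points are the 132 genes called higher in XXM mice and blue points the 238 called lower, and the lower genes reach -3.14 where the higher ones reach 1.55.

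Of 24 genes of NK and cytotoxic cells, 8 were called higher in XXM mice and 0 lower, and 22 had a positive difference. Their median difference was 0.39, beside 0.01 over all autosomal genes tested, and without XYM 9 it was 0.23, with 8 called higher and 1 lower. Gzma was the 1 called member outside the Klr and Klra family, and the other 7 are counted again with that family. The summed RPKM of the list was 1182, 1040, 1046, 1036 and 1001 in XXM 2, 5, 6, 7 and 8 and 805, 779, 1062, 691 and 422 in XYM 12, 13, 15, 16 and 9. XYM 15 thus lay among the XXM mice. Ccl5, a chemokine of T and NK cells, was the most abundant gene of the list, with a mean RPKM of 275, and was not called.

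Gzma, the serine protease granzyme A of cytotoxic granules (chromosome 13, 113093824 to 113100981 of GRCm38), had levels of 8.21, 7.81, 7.98, 7.88 and 7.76 in XXM 2, 5, 6, 7 and 8. In XYM 12, 13, 15, 16 and 9 it had levels of 6.79, 6.90, 7.60, 6.38 and 4.96. The XXM mice lay close together and above all XYM mice, of which XYM 9 was far the lowest. Means of the groups differed by 1.40 (SE 0.36, adjusted p = 0.0628 from limma) and 1.01 without XYM 9 (adjusted p = 0.0567). The call was lost without XXM 2, 5 or 6 or XYM 12, 13 or 16 and with the 10 males alone in the fit, and the difference lay between 1.01 and 1.67 with each mouse left out, with adjusted p values of 0.00399 to 0.163 over the alternatives.

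The Klra genes encode the Ly49 receptors of mouse NK cells. Klra8, the activating receptor Ly49H, which recognizes a protein of mouse cytomegalovirus (chromosome 6, 130115226 to 130129898), had levels of 5.23, 5.08, 5.85, 5.46 and 5.15 in XXM 2, 5, 6, 7 and 8. In XYM 12, 13, 15, 16 and 9 it had levels of 4.35, 4.22, 4.67, 4.02 and 2.97. No XXM mouse overlapped with an XYM mouse, and between 154 and 1076 reads stood behind each value. XXM minus XYM came to 1.31 (SE 0.27, adjusted p = 0.0319 from limma), and it was called under all 33 alternatives (adjusted p 0.00122 to 0.0873), with 1.04 without XYM 9. Klra4, which encodes Ly49D, another activating receptor, had levels of 5.19 to 5.78 in XXM mice and 2.94 to 4.80 in XYM mice. Its difference was 1.30 (SE 0.32, adjusted p = 0.0587 from limma) and 0.99 without XYM 9, and its call was lost without XXM 2, 5 or 6 or XYM 13 or 16. That difference lay between 0.99 and 1.46 with a mouse left out. Klra7, which encodes the inhibitory receptor Ly49G, had levels of 4.29 to 4.48 in XXM mice and 2.67 to 3.98 in XYM mice, with a difference of 1.01. Klrg1, a receptor of mature NK and effector T cells, had levels of 3.31, 3.26, 3.36, 3.20 and 3.27 in XXM 2, 5, 6, 7 and 8 and of 2.56, 2.39, 2.84, 2.10 and 1.81 in XYM 12, 13, 15, 16 and 9. Its 5 XXM values spanned far less than its XYM values, and the XXM and XYM means differed by 0.94 (SE 0.19, adjusted p = 0.0281 from limma).

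Of the 27 Klr and Klra genes tested on chromosome 6, chosen as a family after their values were seen, 12 were called higher and 0 lower, 21 had a positive difference and the median was 0.55. They include 7 of the NK and cytotoxic genes above. Without XYM 9 the median was 0.39 and 9 were called higher. With the gene length trend removed the median was 0.42 and 8 were called higher, 7 of them among the 12. Klra1 (0.51), Klra3 (0.42), Klra13-ps (0.55), Klra14-ps (0.61) and Klrb1a (0.55) were then not called. The 27 genes lie between 122270596 and 131247716, where 98 other genes were tested. Those had a median difference of -0.01, and 5 of them were called. Members with a negative difference were Klri1 (-0.43), Klra17 (-0.33), Klra2 (-0.33), Klrc1 (-0.28), Klrb1f (-0.09) and Klrc3 (-0.02), none of them called. Klra genes resemble each other closely and some are pseudogenes, so that the reads given to any member are uncertain.

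Promoters in RefSeq (GRCm38.p6) were matched for 9593 of the autosomal genes tested, as 300 bases around a start. Klra4, Klra8 and Gzma were each called higher, and their promoters are shown to compare their sequences. They are written 5′ to 3′ on the minus strand, where each of the 3 genes lies. Capitals mark letters found on either strand, which are CCAAT, a promoter box of many genes, in Klra4 and Gzma, and the interferon element GAAANNGAA, in Gzma alone, with no overlap between them. Klra8 held neither. The letters AGATAA for GATA factors, the E-box with letters CACGTG and the ETS motif with letters GAGGAAGT were also searched, with no match in these 3.
Klra4 (chr6:130067222-130067521): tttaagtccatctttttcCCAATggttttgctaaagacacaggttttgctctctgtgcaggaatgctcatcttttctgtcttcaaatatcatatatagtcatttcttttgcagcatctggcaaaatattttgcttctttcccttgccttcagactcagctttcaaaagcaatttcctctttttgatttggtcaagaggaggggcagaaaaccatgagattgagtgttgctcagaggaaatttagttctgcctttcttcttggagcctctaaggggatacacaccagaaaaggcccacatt
Klra8 (chr6:130129849-130130148, the first of 2 starts listed): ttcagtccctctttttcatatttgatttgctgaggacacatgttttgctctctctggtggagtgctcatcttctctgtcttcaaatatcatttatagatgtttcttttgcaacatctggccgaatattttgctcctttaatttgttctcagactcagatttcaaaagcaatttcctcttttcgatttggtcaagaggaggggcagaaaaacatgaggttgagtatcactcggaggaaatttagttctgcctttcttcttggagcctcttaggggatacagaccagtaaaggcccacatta
Gzma (chr13:113100932-113101231): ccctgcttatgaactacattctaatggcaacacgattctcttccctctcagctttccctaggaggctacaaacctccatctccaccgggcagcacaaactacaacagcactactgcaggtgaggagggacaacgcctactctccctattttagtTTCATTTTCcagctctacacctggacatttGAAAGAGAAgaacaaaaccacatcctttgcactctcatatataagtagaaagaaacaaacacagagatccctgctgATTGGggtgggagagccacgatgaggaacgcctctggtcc
Klra4 and Klra8 had 259 of 300 bases identical in a gapped alignment (86.3%), whereas Klra4 and Klra7 had 148 (49.3%), and Klra8 and Gzma, which are not related, 154 (51.3%). Klra7 has 2 starts listed, and the promoter used (130231638 to 130231937) lies inside the gene, which ends at 130233322. Its other start was not compared. CCAAT occurred in 39.2% of the 9593 promoters and GAAANNGAA in 7.58%, and among the 8 NK and cytotoxic genes called higher they occurred in 4 and 1.

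Genes of other cells were also called higher. Cd209d, a C-type lectin of the DC-SIGN family, had levels of 3.55, 2.77, 2.26, 3.09 and 3.18 in XXM 2, 5, 6, 7 and 8 and of 2.12, 1.68, 1.95, 1.64 and 1.15 in XYM 12, 13, 15, 16 and 9, from between 20 and 126 reads. The XXM and XYM means differed by 1.26 (SE 0.21, adjusted p = 0.0108 from limma), and it was called under all 33 alternatives. Serpinb9b, a serpin of the granzyme inhibitor family, had levels of 1.02 to 1.60 in XXM mice and 0.15 to 0.51 in XYM mice, from 32 to 71 and 4 to 14 reads. It passed the filter through its XXM values alone, so that a difference was needed for it to be tested. Its difference was 0.97 (SE 0.15, adjusted p = 0.00577 from limma), and it was called without a filter as well. The difference of Serpinb9b was 2.12 with a pseudocount of 0.1 and 2.48 with limma-voom. Marco, the scavenger receptor of marginal zone macrophages, had a difference of 1.01 and overlapping groups. With Hmox1, heme oxygenase (0.77), it was called among 17 macrophage genes, of which 12 had a positive difference, with a median of 0.18 over the list that was 0.03 without XYM 9. Without XYM 9 only 1 of the 17 was called, and Hmox1 had a difference of 0.65 (adjusted p = 0.112 from limma). Siglech, a marker of plasmacytoid dendritic cells, was the 1 dendritic cell gene of 14 called (0.70, median 0.26), and its groups did not overlap.

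Of 29 chemokine and chemokine receptor genes tested, 4 were called higher and 0 lower, with a median of 0.16. They were Ccl6 (0.87), Ccl3 (0.86), Ccl4 (0.76) and Xcl1 (0.62). Ccl3 and Ccl4 encode the inflammatory chemokines MIP-1 alpha and beta, and Xcl1 the lymphotactin made by NK and CD8 T cells. Ccl3 had levels of 4.23 to 4.88 in XXM mice and 3.57 to 4.18 in XYM mice. Without XYM 9, 3 of the list were called higher and 2 lower, but Ccl4 (0.69, adjusted p = 0.108 from limma) and Xcl1 (0.46, adjusted p = 0.111 from limma) were not called.

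Tppp3, a tubulin binding protein, had a difference of 0.93, and Gm4184, annotated as a pseudogene, of 1.23. H2bc4, which encodes a histone H2B, had levels of 4.58 to 5.46 in XXM mice and 3.46 to 4.39 in XYM mice, with a difference of 0.99 (SE 0.21, adjusted p = 0.0319 from limma). Of 44 replication-dependent histone genes tested, 4 were called higher and 0 lower, with a median of 0.16 (0.29 and 8 higher without XYM 9, and 0.07 and 1 higher with the gene length trend removed). H1f2 (0.72), H2aw (0.64) and H2ac6 (0.64) were the others called. Trdj1 (1.28) and Ighd3-2 (1.28) are short antigen receptor joining and diversity segments with between 1 and 10 and between 2 and 13 reads, so that their levels rest on few reads. The calls of Tppp3, Gm4184 and Ighd3-2 were lost without XXM 2, 5 or 6 or XYM 12, 13 or 16, that of Ighd3-2 also without XXF F4 or F5, and that of Trdj1 without XXM 2 or 6 or XYM 12, 13 or 16. With the 10 males alone in the fit Gm4184 and Ighd3-2 were not called, nor was Ighd3-2 without a filter or with limma-voom, nor Tppp3 with the gene length trend removed (0.69, adjusted p = 0.166 from limma). With a mouse left out the differences of Tppp3, Gm4184, Ighd3-2 and Trdj1 lay between 0.81 and 1.05, 0.94 and 1.37, 1.02 and 1.52, and 1.08 and 1.42.

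**Figure D2:**
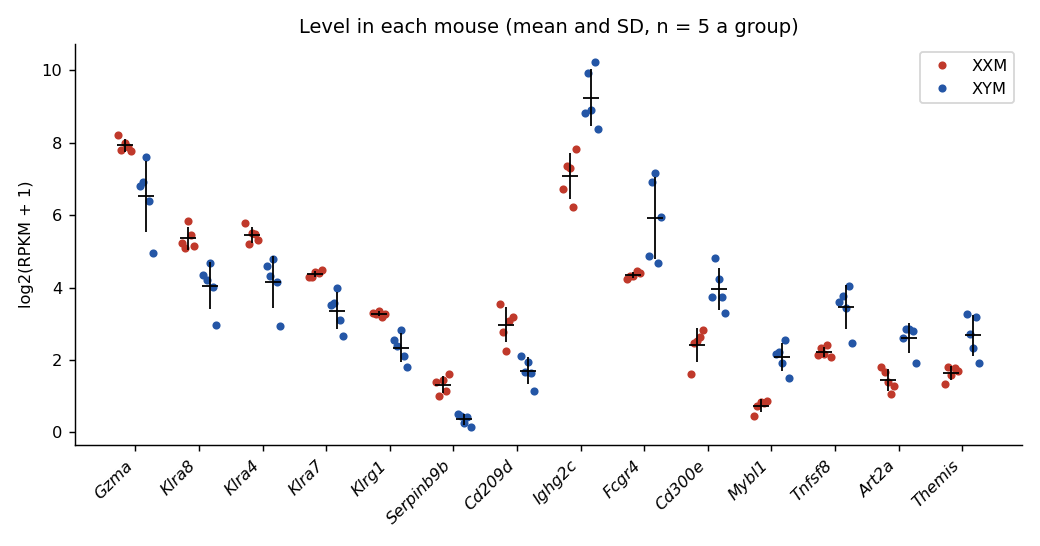
Level of 14 genes named here in each mouse (vertical axis, log2(RPKM + 1)), with XXM mice in red and XYM mice in blue, and the mean and SD (n = 5) in black. The first 7 genes lie higher and the last 7 lower in each XXM mouse than in any XYM mouse, and the last XYM point, XYM 9, lies lowest for Gzma at 4.96.

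Antibody genes made up the largest group of lower genes. Of 106 heavy chain variable (Ighv) genes tested, 39 were called lower in XXM mice and 0 higher, 101 had a negative difference, and the median was -1.20. All 5 XXM values lay below all XYM values for 21 of them. Without XYM 9 there were 49 lower with a median of -1.37. Without XXM 2 and without XYM 13, however, only 27 and 26 autosomal genes of any kind were called lower, fewer than these 39. The summed RPKM of the family was 1774, 3572, 3805, 6709 and 5407 in XXM 2, 5, 6, 7 and 8 and 11698, 13996, 7716, 11282 and 9494 in XYM 12, 13, 15, 16 and 9. No XXM mouse overlapped with an XYM mouse, and XXM 2 was far the lowest. The sum leans on abundant members, of which the first, Ighv13-2, had a mean RPKM of 2056 over the 10 mice and was not called. Ighv1-9 had a difference of -2.43 (SE 0.49, adjusted p = 0.0266 from limma), Ighv8-8 of -2.33, Ighv14-4 of -2.61 and Ighv2-3 of -2.54. Ighv1-9 and Ighv8-8 were called with each of the 10 males left out in turn, whereas Ighv14-4 and Ighv2-3 lost their calls in some of these fits. The groups overlapped for Ighv2-3, where XYM 15 had a level of 3.91.

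Of 101 kappa chain variable (Igkv) genes, 7 were called lower and 0 higher, with a median of -0.41 (-0.43 and 16 lower without XYM 9). The most abundant of them, Igkv1-110, had a mean RPKM of 2457 and was not called. Igkv3-2, with the most negative difference of all called genes, had levels of 5.90, 6.25, 6.13, 7.55 and 6.25 in XXM 2, 5, 6, 7 and 8 and of 8.92, 10.15, 11.03, 9.84 and 7.83 in XYM 12, 13, 15, 16 and 9. Means of the groups differed by -3.14 (SE 0.48, adjusted p = 0.00448 from limma). Igkv5-39 had levels of 6.14 to 7.79 in XXM mice and 8.36 to 10.45 in XYM mice, with a difference of -2.71 (SE 0.40, adjusted p = 0.00338 from limma). Neither overlapped between the groups. Igkv5-45 (-1.60) and Igkv13-84 (-1.20) were called with overlapping groups. Of the 3 lambda chain variable genes 0 were called (median -0.03), and the most abundant, Iglv1, was highest in XXM 5 at 11.31. Variable genes are near copies, and the sources do not say how a read matching more than 1 of them was counted, so that the level of any member is uncertain.

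Of 11 immunoglobulin constant genes tested, 1 was called, and the median was -0.13 (-0.29 and 2 lower with the gene length trend removed). Ighg2c, the constant region of the IgG2c heavy chain, which C57BL/6 mice make under the influence of interferon gamma (chromosome 12, 113287389 to 113288932), had levels of 6.71, 7.35, 7.29, 6.21 and 7.83 in XXM 2, 5, 6, 7 and 8. In XYM 12, 13, 15, 16 and 9 it had levels of 8.81, 9.91, 8.90, 10.22 and 8.39. Between 1268 and 4140 reads stood behind the XXM values and between 6413 and 21700 behind the XYM values, with no overlap. XXM minus XYM came to -2.17 (SE 0.38, adjusted p = 0.0118 from limma), and it was called under all 33 alternatives, with -2.38 without XYM 9. Immunoglobulin genes together took 2.36% to 3.17% of all reads in XXM mice and 3.16% to 4.52% in XYM mice.

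Plasma cells make most secreted antibody. Of 17 plasma cell genes 0 were called, with a median of -0.19, and 1 was called lower with the gene length trend removed. Jchain, the most abundant, had a difference of -0.21 (adjusted p = 0.616 from limma). Sec11c, a signal peptidase subunit, had one of 0.20. Of 22 genes of protein folding in the endoplasmic reticulum 0 were called, with a median of 0.05 that was -0.05 after quantile normalization, and Hsp90b1 and Hspa5, its chaperones, had differences of 0.10 and 0.01.

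Of 11 germinal center B cell genes, 5 were called lower in XXM mice and 0 higher, 10 had a negative difference and the median was -0.63. Without XYM 9, 7 were called lower with a median of -0.79. The summed RPKM of the list was 52.1 to 69.9 in XXM mice, 64.3 in XYM 9 and 91.6 to 111 in the other XYM mice. XYM 9 thus lay among the XXM mice. Mybl1, the transcription factor A-Myb of dividing germinal center B cells (chromosome 1, 9667407 to 9700439), had levels of 0.45, 0.73, 0.85, 0.80 and 0.88 in XXM 2, 5, 6, 7 and 8. In XYM 12, 13, 15, 16 and 9 it had levels of 2.16, 2.21, 1.92, 2.56 and 1.51. All XXM mice lay below all XYM mice, with 16 to 54 reads against 126 to 317. The XXM and XYM means differed by -1.33 (SE 0.24, adjusted p = 0.0126 from limma), and it was called under all 33 alternatives. The difference of Mybl1 was -2.11 with a pseudocount of 0.1 and -2.22 with limma-voom. Nuggc had a difference of -0.91 and S1pr2, a sphingosine phosphate receptor that holds B cells in the germinal center, of -0.84, both without overlap. Bcl6, the master regulator of germinal center B cells, was the most abundant of the list and was not called.

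Of 20 general B cell genes 1 was called, Pax5, which was higher (0.90), and 17 had a positive difference, with a median of 0.19 that was 0.05 without XYM 9, when 1 was called higher and 1 lower. Of 14 marginal zone and follicular B cell genes 0 were called, with a median of 0.17 that was 0.03 without XYM 9, when 1 was called higher. Klf2, a transcription factor of resting lymphocytes and among the most abundant of the list, had a difference of 0.56. Of 10 genes of MHC class II presentation 0 were called, with a median of 0.33 (0.25 and 1 lower without XYM 9). With the gene length trend removed that median was 0.11. Cd74 and H2-Aa had differences of 0.48 and 0.33. H2-Ea, a class II gene outside the list, was called higher.

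Of 26 T cell genes, 7 were called lower in XXM mice and 0 higher, with a median of -0.18 (-0.36 and 9 lower without XYM 9). They were Themis, Cd8b1, Cd28, Tcf7, Cd8a, Il7r and Cd4. Each of these lost its call in some fit with 1 of the 10 males left out. Another 7 of the 26 had a positive difference. The summed RPKM of the list overlapped between the groups, at 1163 to 1565 in XXM mice and 924 to 1880 in XYM mice. Themis, which acts in T cell receptor signaling and thymic selection, had levels of 1.34, 1.82, 1.59, 1.77 and 1.71 in XXM 2, 5, 6, 7 and 8 and of 3.26, 2.71, 2.34, 3.18 and 1.93 in XYM 12, 13, 15, 16 and 9. The groups did not overlap. Means of the groups differed by -1.04 (SE 0.26, adjusted p = 0.0587 from limma), and the call was lost without XXM 2, 5 or 6 or XYM 12, 13 or 16, with differences between -1.23 and -0.90. The differences of Cd8b1, of the CD8 coreceptor, of Cd28, the costimulatory receptor, and of Tcf7, a transcription factor of naive T cells, were -0.83, -0.79 and -0.78, each with overlapping groups. Of 72 T cell receptor variable genes 6 were called lower and 0 higher, with a median of -0.36 (-0.50 and 18 lower without XYM 9). The summed RPKM of the family was 182, 243, 205, 219 and 153 in XXM 2, 5, 6, 7 and 8 and 347, 292, 337, 302 and 158 in XYM 12, 13, 15, 16 and 9. XYM 9 lay among the XXM mice and the other XYM mice above them. Trav6-5 (-1.01), Trav7-6 (-0.94), Trav13-1 (-0.92) and Trbv19 (-0.88) were among those called, and only Trbv19 of these had no overlap. Trav6-5 and Trav7-6 reached the filter in 1 XXM mouse and all 5 XYM mice. Traj3, a joining segment, had a difference of -2.35 from 0 or 1 read in each XXM mouse and 2 to 17 in the XYM mice, and its call was lost without XYM 12, 13 or 16 (-2.76 to -2.11 with a mouse left out).

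Of 14 genes of regulatory and activated helper T cells 2 were called lower and 0 higher, with a median of -0.45 (-0.59 and 7 lower without XYM 9). Pdcd1, the checkpoint receptor PD-1, had a difference of -1.04 and Il21, a cytokine of follicular helper T cells, of -1.01. Tnfsf8, the CD30 ligand, had levels of 2.15, 2.33, 2.17, 2.41 and 2.07 in XXM 2, 5, 6, 7 and 8 and of 3.60, 3.77, 3.43, 4.03 and 2.46 in XYM 12, 13, 15, 16 and 9. Its difference was -1.23 (SE 0.25, adjusted p = 0.0265 from limma). Art2a, a near copy of Art2b, an ADP-ribosyltransferase of the T cell surface, is annotated as a transcribed pseudogene and had levels of 1.06 to 1.81 in XXM mice and 1.91 to 2.86 in XYM mice. Its difference was -1.16 (SE 0.19, adjusted p = 0.00925 from limma). Both were called under all 33 alternatives. Ly75, the endocytic receptor DEC-205 (-1.04), and Plcg1, a phospholipase of T cell receptor signaling (-0.96), had no overlap, nor had Angptl2, an angiopoietin-like protein (-1.15), or Mcts2 (-0.96). The calls of Ly75, Plcg1 and Mcts2 were lost without XXM 2, 5 or 6 or XYM 12, 13 or 16, and that of Angptl2 without XXM 2 or XYM 13 or 16. Plcg1 and Mcts2 were not called with the 10 males alone in the fit, nor Plcg1 without a filter. With a mouse left out the differences of Ly75, Plcg1, Mcts2 and Angptl2 lay between -1.19 and -0.91, -1.11 and -0.77, -1.11 and -0.80, and -1.34 and -0.97.

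Among monocyte genes, 2 of 16 were called lower and 0 higher, with a median of -0.20 (-0.08 and 1 lower without XYM 9). Fcgr4, an activating Fc receptor that binds IgG2 antibodies (chromosome 1, 171018926 to 171029761), had levels of 4.23, 4.31, 4.33, 4.45 and 4.40 in XXM 2, 5, 6, 7 and 8. In XYM 12, 13, 15, 16 and 9 it had levels of 4.88, 6.92, 7.15, 4.67 and 5.95. The XXM mice were nearly level, whereas the XYM mice ranged widely above them. XXM minus XYM came to -1.57 (SE 0.36, adjusted p = 0.0449 from limma) and -1.56 without XYM 9. The call was lost without XXM 2 or XYM 13 and with the 10 males alone in the fit. With a mouse left out the difference of Fcgr4 lay between -1.88 and -1.26, with adjusted p values of 0.00396 to 0.132 over the alternatives. Its promoter is shown for the interferon element and the ETS motif, both in capitals, that it holds on either strand, read 5′ to 3′ on the plus strand of GRCm38.p6 from RefSeq.
Fcgr4 (chr1:171018676-171018975): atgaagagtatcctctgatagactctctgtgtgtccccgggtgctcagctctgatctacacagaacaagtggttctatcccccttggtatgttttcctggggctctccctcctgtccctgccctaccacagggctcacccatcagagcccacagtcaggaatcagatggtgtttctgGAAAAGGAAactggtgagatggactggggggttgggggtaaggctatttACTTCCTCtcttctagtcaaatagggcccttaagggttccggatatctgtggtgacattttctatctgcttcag
GAGGAAGT occurred in 3.54% of all 9593 promoters and in 8 of the 132 lower genes with a promoter, and GAAANNGAA in 7.58% and in 13. Cd300e, an activating receptor of monocytes, had levels of 1.60, 2.46, 2.52, 2.63 and 2.84 in XXM 2, 5, 6, 7 and 8 and of 3.74, 4.82, 4.23, 3.74 and 3.30 in XYM 12, 13, 15, 16 and 9. Its difference was -1.56 (SE 0.30, adjusted p = 0.0226 from limma), and it was called under all 33 alternatives. Ly6c2, of inflammatory monocytes, had a difference of -0.79, which was -0.52 without XYM 9 (adjusted p = 0.108 from limma). Of the 20 neutrophil genes 0 were called, and their median moved from -0.56 to 0.12 without XYM 9.

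Interferon-inducible genes were lower in part. Of 14 GTPases induced by interferon gamma, 4 were called lower and 0 higher, with a median of -0.45 (-0.58 and 7 lower without XYM 9). Iigp1 (-0.93), Tgtp2 (-0.87), Tgtp1 (-0.78) and Gbp6 (-0.65), which act against intracellular microbes, were those called. The summed RPKM of the list was 180, 214, 222, 234 and 225 in XXM 2, 5, 6, 7 and 8 and 309, 291, 321, 328 and 177 in XYM 12, 13, 15, 16 and 9. XYM 9 was thus below all XXM mice, and the other XYM mice above them. Of 24 genes stimulated by type I interferon, 4 were called lower and 0 higher, with a median of -0.31 (-0.47 and 9 lower without XYM 9). Among them were Oas2 (-0.82) and Oas3 (-0.66), which sense double-stranded RNA, and Ifih1, another RNA sensor (-0.64). Ifih1 had no overlap between the groups. Oas3 was not called without XYM 9 (-0.56, adjusted p = 0.11 from limma). Of 15 MHC class I genes 1 was called, Nlrc5, the transactivator of that class, which was lower (-0.75, where the median of the list was 0.08, 0.02 without XYM 9, with 2 called lower, and -0.10 after quantile normalization). Of 15 Toll-like receptor and adaptor genes 0 were called, with a median of -0.02, and Unc93b1 and Tlr1 had differences of 0.13 and -0.24.

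**Figure D3:**
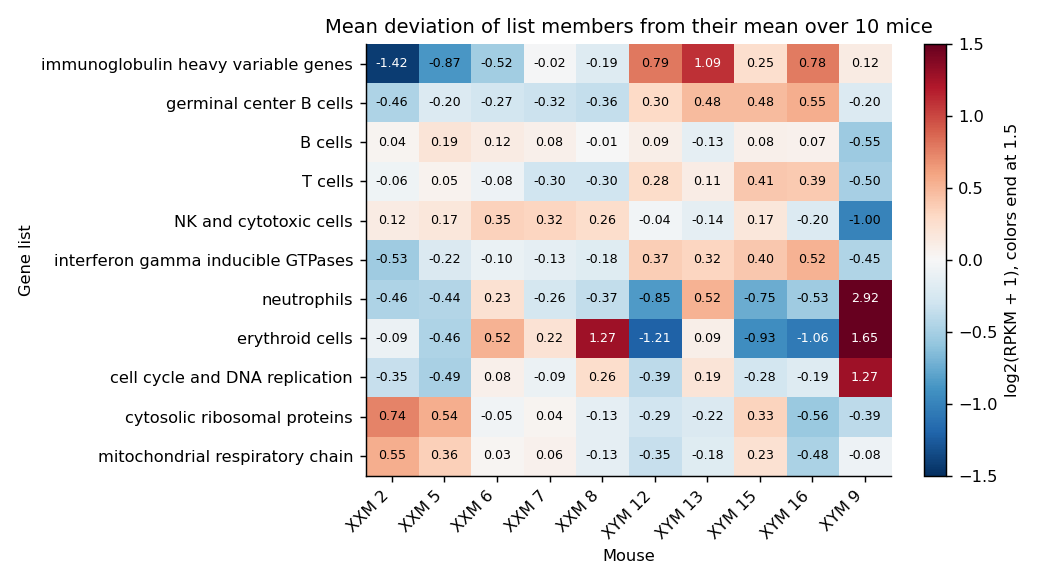
Mean deviation of the members of 11 gene lists from their own mean over the 10 mice (color and printed value, log2(RPKM + 1)), with 1 row a list and 1 column a mouse. The heavy chain variable genes run from -1.42 in XXM 2 to 1.09 in XYM 13, and XYM 9 stands out with 2.92 for neutrophils and 1.65 for erythroid cells, where colors end at 1.5.

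All 31 erythroid genes tested had a positive difference, with a median of 0.58, and 2 of them were called, the near copies Hba-a1 (1.55) and Hba-a2 (1.52) of the alpha chain of hemoglobin. Hba-a1 had levels of 11.31, 10.89, 10.98, 10.43 and 11.40 in XXM 2, 5, 6, 7 and 8 and of 8.37, 9.94, 9.55, 8.34 and 11.08 in XYM 12, 13, 15, 16 and 9. XYM 9 lay among the XXM mice. The XXM and XYM means differed by 1.55 (SE 0.50, adjusted p = 0.0921 from limma), and 1.95 without XYM 9, when 9 erythroid genes were called higher with a median of 1.04. The summed RPKM of the list was 15835, 12398, 10077, 9584 and 19590 in XXM 2, 5, 6, 7 and 8 and 3112, 9054, 6515, 2243 and 20416 in XYM 12, 13, 15, 16 and 9. Red cells were lysed by the authors, and the part that this step has in these values was not tested. Of 16 platelet genes 1 was called higher, Clec1b (0.63, median of the list 0.20), and 0 without XYM 9, when Clec1b had a difference of 0.57. Of 33 cell cycle genes 0 were called, with a median of -0.22 that was 0.03 without XYM 9, and 6 had a positive difference. Of its most abundant genes, Pcna had a difference of -0.00, and Ube2c of 0.39, the highest of the list, which was 0.88 without XYM 9, the mouse with the highest level (7.31), and 0.15 with the gene length trend removed.

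Short genes tended to be higher and long genes lower in XXM mice. The median difference was 0.23 over the 2556 autosomal genes of at most 1240 bases, called short here, and -0.20 over the 2553 of at least 4377 bases, called long. The genes called higher had a median length of 1183 bases and those called lower of 2780, beside 2536 over all tested. In each mouse, the mean deviation of the short genes from their own means minus that of the long genes was 0.47, 0.31, 0.04, 0.04 and -0.11 in XXM 2, 5, 6, 7 and 8 and -0.31, -0.17, 0.22, -0.41 and -0.08 in XYM 12, 13, 15, 16 and 9. The groups overlapped, with XYM 15 above XXM 6, 7 and 8 and XXM 8 below XYM 9. Of 81 ribosomal protein genes, 80 had a positive difference and 5 were called higher, with a median of 0.47, and 88 of 90 respiratory chain genes were positive with 0 called by limma and a median of 0.38. Without XYM 9, 3 genes of each list were called higher, and Rpl21 was not called (0.72, adjusted p = 0.103 from limma). Rpl35a (0.83), Rpsa (0.83), Rpl21 (0.76) and Rps9 (0.67) were among those called, and Cox4i1 and Atp5b of the respiratory chain had differences of 0.48 and 0.08. With each mouse's trend on gene length removed, an alternative chosen after seeing the data, those medians were 0.24 and 0.18, and 87 autosomal genes were called higher and 193 lower, of which 50 and 147 were called before. The Ighv median was then -1.30, with 30 lower, the germinal center median -0.82, with 6 lower, and the NK and cytotoxic median 0.28, with 7 higher. The type I interferon genes then had 1 called, and the erythroid and chemokine genes had 0 called higher. Hba-a1 and Hba-a2 then had differences of 1.33 and 1.30, with an erythroid median of 0.49. Ccl6, Ccl3, Ccl4 and Xcl1 had differences of 0.69, 0.60, 0.51 and 0.43. Jund (0.70), Hsp90aa1 (0.73), Hmox1 (0.62), Trav13-1 (-1.04) and Rpl21 (0.65) were then not called, with differences still over 0.585 in size. Clec1b (0.41), Nlrc5 (-0.53), Gbp6 (-0.53), Oas3 (-0.52), Ifih1 (-0.46) and Rps9 (0.41) were not called either, with differences under 0.585 in size. Of the ribosomal protein genes 3 were then called. The T cell receptor variable genes then had 11 called lower, and the regulatory and helper T cell genes 4. Of the marginal zone and follicular B cell genes 2 were then called higher, and of the dendritic cell genes 2, with a median of 0.12. The list medians turned their sign for MHC class I (-0.08), Toll-like receptor (0.03), glucocorticoid response (0.04), circadian clock (0.03) and histone methylation (0.04, from -0.16) genes. The part of RNA quality or library preparation in these differences was not tested.

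**Figure D4:**
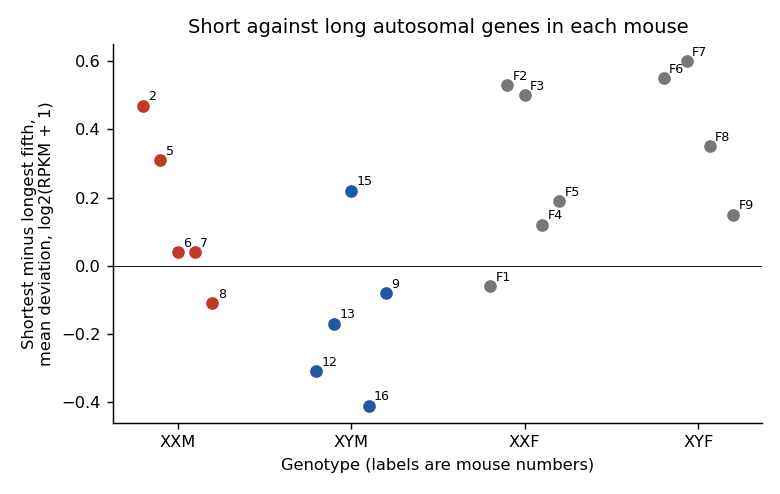
Mean deviation of short minus long autosomal genes (vertical axis, log2(RPKM + 1)) in each mouse, by genotype, 1 point a mouse with its number. XXM mice run from -0.11 to 0.47 and XYM mice from -0.41 to 0.22, and the ovary-bearing mice from -0.06 to 0.60.

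The same contrast in ovary-bearing mice (XXF minus XYF, 5 and 4 mice, none shared with the males) called 80 of the 12764 genes higher (0.627%) and 78 lower (0.611%). Of the 132 genes higher in XXM mice, 26 were also higher in XXF mice, 19.7% of the male and 32.5% of the female list. Of the 238 lower genes, 14 were also lower in XXF mice, 5.88% and 17.9% of the lists. The shared higher genes included Gzma, Klra4, Klra7, Klra8, Klrg1, Marco and Serpinb9b, and the shared lower genes Cd300e, Fcgr4, Ighg2c, Igkv3-2 and Igkv5-39. Of the genes higher in XXM mice 68.9% had a positive difference in females, and of those lower 50%, beside 61% over all autosomal genes tested. The female difference was 1.73 for Gzma, 1.26 for Klra8, -1.77 for Ighg2c and -2.22 for Fcgr4. Of the 24 NK and cytotoxic genes, 13 were called higher in XXF mice, with a median of 0.92. The summed RPKM of these 24 was 425 in XYF F9, 670 to 955 in the other XYF mice and 1180 to 1465 in XXF mice. The Ighv median in females was -0.84, with 5 called lower. None of the 31 erythroid genes, all positive in males, had a positive difference in females, where their median was -0.68. The summed RPKM of that list was 17019 to 37529 in XXF mice and 20633 to 61103 in XYF mice. The T cell receptor variable genes had a female median of 0.41, with 67 of 72 positive, where the male median was -0.36. Their summed RPKM was 241 in XYF F9, 466 to 592 in the other XYF mice and 522 to 724 in XXF mice. For no gene of these 2 lists was the change between the sexes called by limma. XYF F9 had a summed neutrophil RPKM of 61798, against 8603 to 17678 in the other XYF mice.

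**Figure D5:**
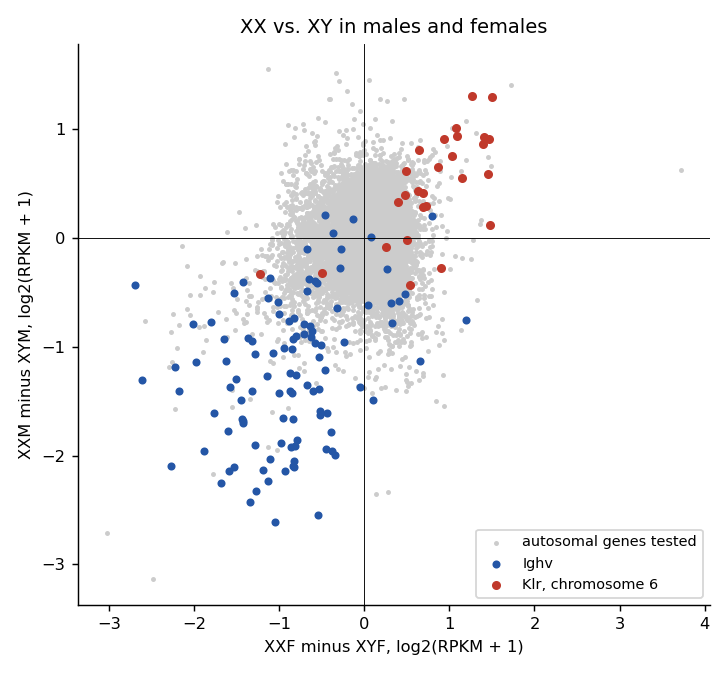
Difference between XXM and XYM mice (vertical axis) against that between XXF and XYF mice (horizontal axis), both in log2(RPKM + 1), for 12764 autosomal genes, 1 point a gene. Of the 27 Klr and Klra genes of chromosome 6 in red, 21 lie above 0 in males, and the 106 Ighv genes in blue have medians of -1.20 in males and -0.84 in females.

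The difference itself differed between males and females for 10 of the 12764 genes (0.0783%) by limma, at an unadjusted p under 0.05 for 2692. Cd28 had a difference of -0.79 in males and 0.56 in females, and the difference between these was -1.35 (SE 0.24, adjusted p = 0.0616 from limma). The XXM mean was 3.13 ± 0.17 (SD, n = 5) beside an XYM mean of 3.91 ± 0.38 (SD, n = 5), whereas the XXF mean of 4.40 ± 0.17 (SD, n = 5) lay above the XYF mean of 3.84 ± 0.32 (SD, n = 4). Nr4a3, an orphan nuclear receptor induced on activation, was lower in XXM mice (-0.71), with 0.64 in females, from 6 to 75 reads in the 10 males. All 26 T cell genes had a positive difference in females, with 3 called higher and a median of 0.45, where the male median was -0.18, and Cd28 was the 1 gene of them for which the change between the sexes was called. The summed RPKM of the T cell genes was 1371 in XYF F9, 2628 to 3425 in the other XYF mice and 2782 to 3748 in XXF mice. The count of 10 genes that differed between males and females moved with single mice. It was 0 without XXF F1, F2 or F5, XYF F6, XYM 12 or XYM 16, and 1 without XXM 6. It was 3 without XXF F4 or XXM 5, 4 without XYM 13, 5 without XXM 2 and 6 without XYF F9. It was 1104 without XXF F3, 729 without XYF F8, 719 without XYM 15 and 1564 without XYM 9.

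The remaining lists had few or no calls. Of 24 immediate early genes 1 was called higher, Jund (0.68), and 1 lower, Nr4a3, with a median of 0.19. Without XYM 9 Jund had a difference of 0.61 and was not called (adjusted p = 0.101 from limma). Of 8 heat shock genes 1 was called higher, Hsp90aa1 (0.71, median 0.42). None was called by limma among 8 Gimap GTPases (median 0.26 and 0.15 without XYM 9, Gimap6 0.22 and Gimap4 -0.14), 7 glucocorticoid response genes (-0.02, Ddit4 0.18 and Nr3c1 0.08) or 14 circadian clock genes (-0.03, Bhlhe40 0.11 and Nr1d2 0.06). None was called among 18 genes of cholesterol synthesis and uptake (median 0.01, Srebf2 0.03 and Hmgcs1 0.15) or 15 histone methylation enzymes (-0.16, but 0.04 with the gene length trend removed, Eed 0.23 and Suz12 -0.12). Markers of tissue around the spleen were mostly below the filter. Of 16 stromal and endothelial genes 5 were tested (median -0.11 and -0.22 without XYM 9, Pecam1 -0.11 and Stab2 0.18), of 12 pancreatic genes 1 (Cela1, 0.51) and of 8 adipocyte and mesothelial genes 1 (Fabp4, -0.53), with 0 called.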

How the data were processed

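RNA from splenocytes of 19 HKSP-immunized FCG mice was sequenced, 1 library per mouse, and XXM and XYM mice were compared here. Genotypes came from the sample records, and 0 further columns were found. The methods name a KAPA stranded kit and the records a NEBNext Ultra kit. Reads were aligned to mm10 with Subread and counted with featureCounts, per the submitters' processing notes. Their versions and strand setting, and how a read matching more than 1 gene was treated, are not stated. The authors deposited log2 values that equal log2(RPKM + 1) with 0.0001 added, normalized by library size and gene length. Whole reads were recovered from the steps between values (all 21317 genes with a read, tolerance 0.05).

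Chromosomes came from RefSeq (GRCm38.p6) by Entrez Gene identifier, matched for 25275 genes. The 1904 others were tested where expressed (461) but are not described. Means of the 4 genotypes were fitted with limma 3.58.1 (R 4.3.3), with an empirical Bayes spread following mean expression, to genes reaching an RPKM of 0.5 in at least 4 of the 10 males. The scripts were tested on simulated data. EdgeR, which the authors used, was not run. The mice are numbered as separate animals, and correlations between 2 males lay between 0.925 and 0.987.

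Named genes were the 12 called genes with the largest positive and the 12 with the largest negative difference among those without overlap, leaving out variable segments, and up to 4 called members of each of 39 gene lists, or the 1 or 2 most abundant where none was called. Members and lists were chosen with earlier results of these data known. Genes outside this rule were chosen after their values were seen. Some genes that the rule names are not reported here. Alternatives were filters (RPKM of 1, none, all 19 mice), pseudocounts of 0.5 and 0.1, median ratio and quantile scaling, the 10 males alone, no trend, array weights, an adjusted p under 0.05, no fold threshold, limma-voom on recovered reads, each mouse left out and, added after seeing the data, removal of the gene length trend. Recovered reads are not independent molecules.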

Additional observations from a re-analysis of the deposited data

Results flagged for a closer look

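Values of the 10 mice were searched for a single mouse far from the rest of its genotype, and 11 of 134 sets of 5 values had such a mouse, where chance alone gives about 5%. XYM 9 lay apart 5 times. Its score, the mean deviation of list members on the log2(RPKM + 1) scale, was -0.34 for T cell receptor variable genes (others 0.25 to 0.41) and -0.46 for marginal zone and follicular B cell genes (others -0.01 to 0.06). It was -0.24 for type I interferon stimulated genes (others 0.19 to 0.36) and -0.45 for interferon gamma inducible GTPases (others 0.32 to 0.52). Its level of Art2a was 1.91, against 2.61 to 2.86. XXM 2 had 17111 genes with reads, against 17557 to 17682 in the other XXM mice, a score of -0.21 for circadian clock genes (others -0.01 to 0.05) and a Plcg1 level of 1.93, against 2.72 to 2.98. XYM 13 had 18213 genes with reads, against 17607 to 17762. XXM 5 had a score of 0.68 for lambda variable genes, against -0.25 to 0.01, and XYM 15 a Ly75 level of 2.71, against 3.40 to 3.67.

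For 10 genes the XX to XY difference differed between males and females by limma. The male minus the female difference was -1.35 for F2rl1, Cd28 and Nr4a3, -1.12 for Ubash3a, -0.96 for Fasl, -0.95 for Znrf2 and -0.83 for Esyt2. It was 0.90 for Nr4a1, 1.04 for Nxpe5 and 1.10 for 5430437J10Rik. All but Cd28 and Nr4a3 were chosen after their values were seen. F2rl1 and Ubash3a were called lower in XXM mice (-0.83 and -0.71), whereas Fasl, Znrf2, Nr4a1 and Nxpe5 had larger differences in females (0.96, 0.65, -0.72 and -0.98) than in males (0.00, -0.31, 0.19 and 0.05).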

How the results depend on the processing

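The cause of the moves below was not tested, except where fewer genes, fewer mice or another threshold enter by construction. Genes called higher and lower in XXM mice, 132 and 238 as reported, numbered 76 and 103 without a filter, 59 and 85 with the 10 males alone, 246 and 656 with array weights, 28 and 42 at an adjusted p under 0.05, and 609 and 454 without a fold threshold. That last setting turned the balance towards higher genes, 57.3% of calls, against 35.7% as reported. With the gene length trend removed 87 were higher and 193 lower. The count of genes whose difference differed between males and females, 10 as reported, was 5 with an RPKM of 1 as filter, 6 without a filter or with a pseudocount of 0.1, 1743 with array weights, 0 at an adjusted p under 0.05 and 4 with limma-voom, with 2692 at an unadjusted p under 0.05 as reported. With each mouse left out, the counts lay between 21 and 481 higher, 26 and 606 lower, and 0 and 1564 for the difference between males and females. The other alternatives kept these counts within 1.5 times. Of the 24 genes with the largest differences among called genes without overlap, leaving out variable segments, 14 were called at an adjusted p under 0.05, and between 11 and 24 with a mouse left out, 11 without XYM 13. The sign of the list medians for MHC class I, protein folding and Toll-like receptor and clock genes, all within 0.1 of 0, turned with quantile normalization. None of the 24 changed direction in any alternative. No paired analysis was possible because the groups share no replicate numbers.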

Other observations

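The 370 called autosomal genes were 103 higher and 170 lower protein-coding genes of 11346, 52 lower variable segments of 282, 10 higher and 3 lower long non-coding RNA genes of 465, and smaller classes. Of 201 pseudogenes 9 were called higher and 1 lower, with a median of 0.28. By chromosome, 10.4% of the genes tested on chromosome 12 and 4.45% on chromosome 6 were called, beside 2.9% of all, and without variable segments 4.06% on each. The lowest share was 1.43%, on chromosome 17.

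Some genes called with each of the 10 males left out in turn belonged to none of the rules, and were chosen after their values were seen. Cma1, mast cell chymase, had a difference of 1.07, Spry2, a feedback inhibitor of growth factor signaling, of 0.82, Clec10a, a lectin of dendritic cells and macrophages, of 0.79, and Ackr3, a scavenger receptor for Cxcl12, of 0.70. Lower were Nt5e, the ecto-nucleotidase CD73 (-1.09), and Spock2, an extracellular proteoglycan (-1.05).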
